A study of Mus musculus with 6 samples.

Results

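The genes described here are 41 genes of the interferon response and of antigen processing, chosen by name as members of the pathway, with earlier results of these data known, and looked up among the single-symbol probe sets of a mouse liver microarray. Of the 41, 37 had such a probe set among the 22180 genes of the array, and 35 passed a filter on low signal and were tested. Gbp2, Oas1a and Dtx3l lay only on probe sets that carry several symbols, Ifi44 was on no named probe set, and these 4 were not analysed here. Gbp6 and Ifit2 measured below the filter in both groups, at 1.86 ± 0.11 and 2.58 ± 0.15 in the controls and 1.84 ± 0.42 and 2.51 ± 0.12 in the knockouts (log2 signal, mean ± SD, n = 3 each), and were not tested.

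The livers were those of 6 male C57BL/6J-background mice at 24 weeks of age, all fed chow. In 3 of them Gpr146, which encodes an orphan receptor of the G protein-coupled class, was knocked out in the whole body (KO), and their 3 littermates were wild type (WT). All 6 mice went 16 hours without food and were then refed for 6 hours before the liver was taken, so every value belongs to the refed state. The knockout covers immune cells as well as hepatocytes, and each mouse gave 1 array. Values by mouse are log2 signals in the order of mouse 1, 2 and 3. The targeted gene was at 5.96, 5.56 and 5.65 in WT and at 4.61, 4.28 and 3.87 in KO, so all KO values lay below all WT values (limma difference -1.47 ± 0.19 SE, adjusted p = 0.0702). Correlations between arrays were 0.982 to 0.988, and Alb, the plasma albumin gene that defines hepatocytes, was at 11.92 ± 0.025 in WT and 11.91 ± 0.011 in KO (SD, n = 3 each).

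Interferons are cytokines that put cells into an antiviral and antigen-presenting state. Type I and type III interferons activate JAK kinases, which lead to a complex holding STAT2 and IRF9 that binds the interferon-stimulated response element (ISRE) in promoters. Interferon gamma acts at the gamma-activated sequence (GAS) and through the induced factor IRF1. The targets include GTPases that attack intracellular vacuoles, the IFIT and OAS proteins that act on viral RNA, the ubiquitin-like protein ISG15, and the immunoproteasome and peptide transporter that load class I molecules. Hepatocytes and the macrophages and endothelial cells of the liver all carry interferon receptors.

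The comparison of KO with WT asks whether the loss of the receptor goes along with a different interferon gene state in the liver. Of the 35 members tested, 28 had a negative difference (80.0%, against 42.3% of all 11090 genes tested). The median over the members was -0.20, against 0.027 over all genes (KO minus WT, log2). Averaged over the members, the log2 signal minus each gene's mean over all mice was 0.088, 0.29 and -0.077 in WT. In KO it was -0.23, -0.068 and -0.0073, so WT mouse 3 lay below KO mice 2 and 3. Genes measured in the same mice are not independent, so counts of members do not stand for counts of mice. In limma, a linear model with error shared across genes, 0 members passed an adjusted p of 0.05, a threshold that 4 genes or 0.0361% of all genes passed. At an unadjusted p under 0.05, 8 members lay lower in KO (22.9%, against a background of 2.98% of all genes) and 0 lay higher (background 6.16%). These 8 were Igtp, Ifit1, Usp18, Cmpk2, Isg15, Gbp7, Eif2ak2 and Zbp1. In 6 members every KO mouse was below every WT mouse (background 5.16%), and in 1, Stat2, every KO mouse was above (background 9.63%). After quantile normalization, which moved the shares over all genes to 5.27% lower and 4.45% higher, 11 members lay lower and 0 higher. With 3 mice against 3, an exact permutation test of a single gene cannot give a p below 0.1. In whole liver, fewer cells of a type and less RNA per cell cannot be told apart.

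**Figure D1:**
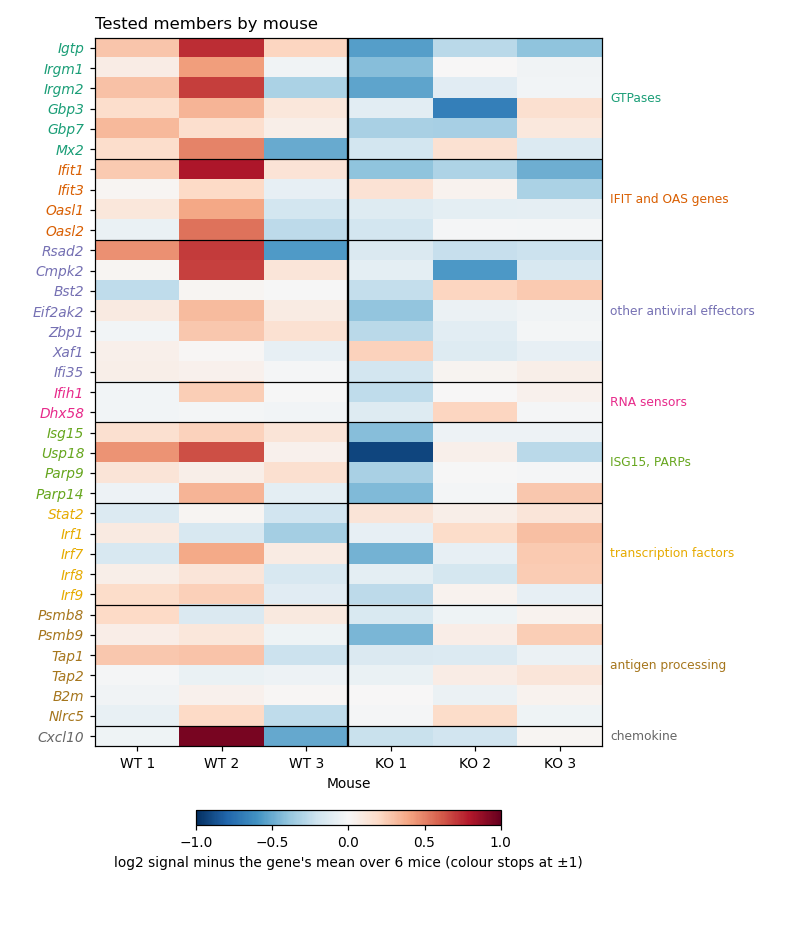
Log2 signal of the 35 tested members (rows, ordered by role) in each of the 6 mice (columns), shown as the difference from the gene's own mean over all mice; red is above and blue below that mean. WT mouse 2 holds the highest value of 23 members and KO mouse 1 the lowest of 16.

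The WT mice were not alike in these genes. WT mouse 2 had the highest value of all 6 mice in 23 of 35 members (65.7%, against 20.3% of all genes), and WT mouse 3 was the lowest of the WT mice in 26 (74.3%, against 32.4%). The median of WT mouse 2 minus WT mouse 3 was 0.28 over the members, against 0.035 over all genes. It was larger in size than the members' median difference between the genotypes. The 2 are unlike measures, since single mice picked as highest and lowest differ more than means of 3 mice. WT mouse 2 was above every KO mouse in 25 members (71.4%, against 27.8% of all genes) and WT mouse 1 in 17 (48.6%, against 18.1%). WT mouse 3 was above every KO mouse in 8, a share of 22.9% that is close to the 22.1% over all genes. Leaving out WT mouse 2 left 2 members lower at an unadjusted p under 0.05, Igtp and Ifit1 (5.71%, against 2.30% of all genes in that fit), with a median of -0.066, and put 1 higher, Stat2 (background 6.93%). With WT mouse 3 left out there were 15 lower (42.9%, against 3.59%) and 0 higher (background 5.39%), and Rsad2 then passed over all genes (limma adjusted p = 0.0385). KO mouse 1 was the lowest of all 6 mice in 16 members (45.7%, against 17.7%), and without it 4 members lay lower, Igtp, Ifit1, Cmpk2 and Usp18 (11.4%, against 2.89%), and 2 higher, Bst2 and Irf1 (5.71%, against 5.85%). The count lower was 5 with KO mouse 2 left out (14.3%, against 2.44%), 7 with WT mouse 1 left out (20.0%, against 3.31%) and 9 with KO mouse 3 left out (25.7%, against 2.59%). Over these 6 fits an unadjusted p under 0.05 was kept in 6 by Igtp and Ifit1, in 5 by Usp18, in 4 by Cmpk2, Isg15 and Eif2ak2, and in 2 by Gbp7 and Zbp1. The 6 members with every KO mouse below every WT mouse became 16 without WT mouse 3 and 7 without WT mouse 2. Leaving out a mouse can only keep or raise such a count. The share over all genes in those fits is not given here, so these counts are not read further.

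**Figure D2:**
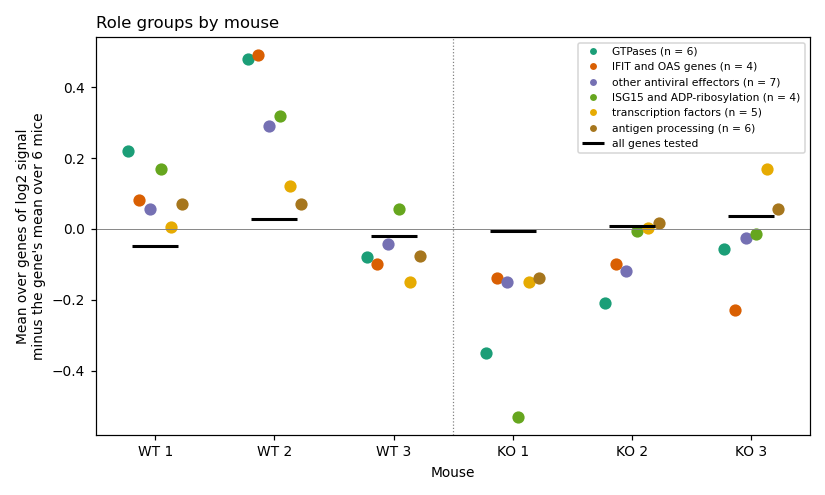
Mean over the tested members of each role group of the log2 signal minus the gene's mean over 6 mice (y axis), for each mouse (x axis); points are role groups with over 2 tested members and bars are all genes tested. The GTPases stand at 0.48 and the IFIT and OAS genes at 0.49 in WT mouse 2, and every role group lies below 0 in KO mouse 1.

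Promoter windows from RefSeq (GRCm38.p6, 250 bases before to 50 after the gene start) were found for 32 of the 41 members and searched on both strands for the ISRE core GAAANNGAAA and the palindromic GAS core TTCNNNGAA. An ISRE core was in the window of 17 of the 32 members (53.1%), against 3.99% of 27025 genes with a window. A GAS core was in 11 of the 32 (34.4%), against 9.55% of genes. High shares of these cores go with the choice of members by pathway, and are not a result about these livers. The lowest unadjusted p-values among tested members with a match belonged to Igtp, Ifit1, Isg15, Gbp7, Eif2ak2 and Stat2. Their stretches are shown to place the motif cores of genes that lay lower together, and of Stat2, which did not. Each runs 5′ to 3′ along the gene from 10 bases before the first match to the base before the gene start, or for Eif2ak2 to 30 bases after it. Capitals mark the matches, and a core on the opposite strand is printed as its reverse complement.
Igtp, chr11:58199501-58199555, + strand: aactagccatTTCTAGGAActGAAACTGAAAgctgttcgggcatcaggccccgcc
Ifit1, chr19:34640775-34640888, + strand: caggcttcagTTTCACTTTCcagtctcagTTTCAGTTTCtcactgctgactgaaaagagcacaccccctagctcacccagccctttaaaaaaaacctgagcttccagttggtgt
Isg15, chr4:156200819-156200906, - strand: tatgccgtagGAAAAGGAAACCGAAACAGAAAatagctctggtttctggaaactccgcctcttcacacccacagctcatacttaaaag
Gbp7, chr3:142530220-142530335, + strand: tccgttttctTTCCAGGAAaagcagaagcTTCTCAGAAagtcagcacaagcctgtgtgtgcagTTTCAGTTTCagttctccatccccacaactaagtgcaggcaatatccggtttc
Eif2ak2, chr17:78882543-78882760, - strand: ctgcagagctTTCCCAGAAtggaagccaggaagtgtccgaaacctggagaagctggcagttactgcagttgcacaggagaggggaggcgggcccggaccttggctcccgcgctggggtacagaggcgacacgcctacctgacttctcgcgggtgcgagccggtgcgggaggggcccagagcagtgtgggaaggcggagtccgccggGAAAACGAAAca
Stat2, chr10:128270266-128270497, + strand: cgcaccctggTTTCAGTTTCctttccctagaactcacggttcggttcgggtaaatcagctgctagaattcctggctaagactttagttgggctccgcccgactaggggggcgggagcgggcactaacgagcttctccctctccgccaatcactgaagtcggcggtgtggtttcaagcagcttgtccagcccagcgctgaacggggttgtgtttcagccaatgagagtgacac

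In Igtp the GAS core ends 37 bases and the ISRE core 25 bases before the gene start. Ifit1 has ISRE cores on the opposite strand that start 104 and 85 bases before it, and Isg15 has 3 ISRE cores that overlap each other in 1 run of capitals. Gbp7 has 2 GAS cores and 1 ISRE core, and the ISRE core of Eif2ak2 lies after the gene start. The 15 tested members with an ISRE core had a median difference of -0.32 with 5 lower at an unadjusted p under 0.05. The 12 tested members whose window lacks these letters had a median of -0.12 with 1 lower. Over all genes 2.98% lay lower at that p. This split also follows role: Igtp, Irgm1, Irgm2, Gbp3 and Gbp7 carry the core, and no GTPase is among those without. Whether the core goes with the difference was not tested. For the GAS core the median was -0.10 over 9 members with it, 3 of them lower at that p, and -0.20 over 18 without, again 3 of them lower. A match is a string of letters and not a measured binding site: B2m and Stat2 carry an ISRE core and differed by -0.012 and 0.21. Gbp6, Mx2, Zbp1, Dhx58, Usp18, Parp9, Parp14, Tap2 and Nlrc5 had no entry.

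**Figure D3:**
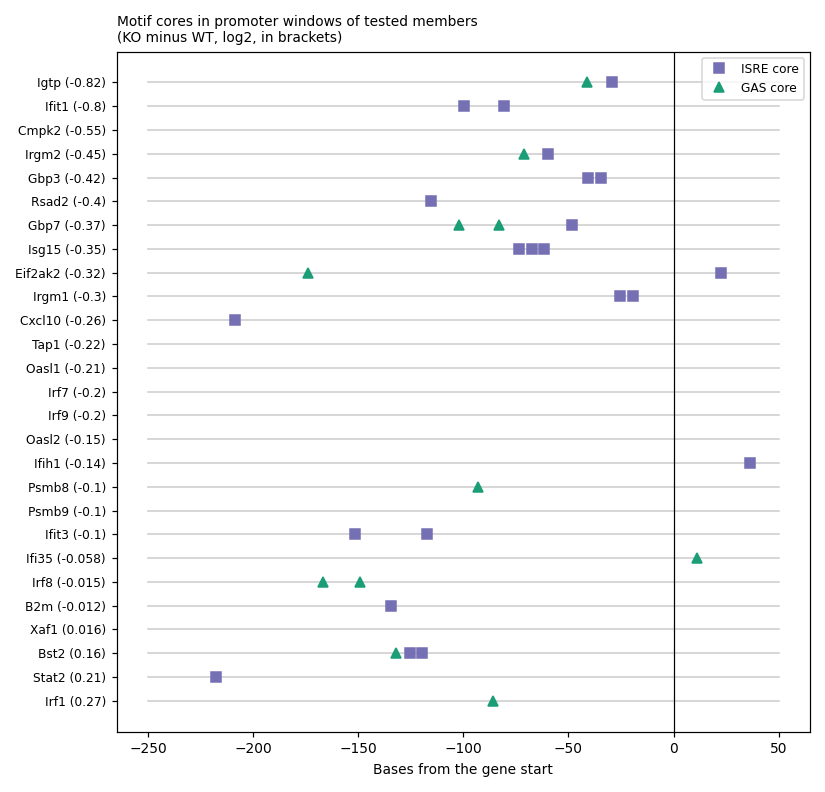
Centres of ISRE cores (squares) and GAS cores (triangles) in the promoter windows of the 27 tested members with a window, by distance from the gene start in bases (x axis), with genes ordered by their KO minus WT difference on the log2 scale (in brackets). Of the 6 most negative of these 27, all but Cmpk2 carry an ISRE core, and so do B2m, Bst2 and Stat2 near the bottom.

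All 6 tested GTPases had a negative difference, with a median of -0.39 and a range from -0.82 to -0.11. An unadjusted p under 0.05 was reached by 2 of them, Igtp and Gbp7, and 5 of the 6 overlapped between the groups. Igtp encodes the immunity-related GTPase Irgm3, which works on the membranes of pathogen vacuoles and lipid droplets. Its log2 signal was 6.78, 7.24 and 6.72 in WT and 5.95, 6.23 and 6.10 in KO. The lowest WT mouse stood above the highest KO mouse, and WT mouse 2 was the highest of all. KO minus WT was -0.82 ± 0.15 (SE), or 1.77-fold higher in WT (unadjusted p = 0.000493, limma adjusted p = 0.228). It had an unadjusted p under 0.05 with each mouse left out in turn, at -0.92 to -0.66.

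Gbp7, a guanylate-binding protein, measured 5.47, 5.31 and 5.20 in WT and 4.82, 4.81 and 5.25 in KO. KO mouse 3 reached the WT range while KO mice 1 and 2 lay below it. The difference was -0.37 ± 0.14 (SE; unadjusted p = 0.0285, limma adjusted p = 0.483). Gbp3 and Irgm2 differed by -0.42 ± 0.20 and -0.45 ± 0.24, and Irgm1, which keeps the effector GTPases in check, by -0.30 ± 0.15, all 3 overlapping between the groups. Gbp3 was at -0.18 without KO mouse 2, and Irgm1 at -0.17 without either WT mouse 2 or KO mouse 1. Mx2, a dynamin-like GTPase that blocks viruses, was at -0.11 ± 0.23 and turned to 0.11 without WT mouse 2. Irgm2 was at -0.21 without WT mouse 2 and -0.72 without WT mouse 3. Guanylate-binding proteins have near-identical copies in the mouse, and signal shared between copies was not tested.

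**Figure D4:**
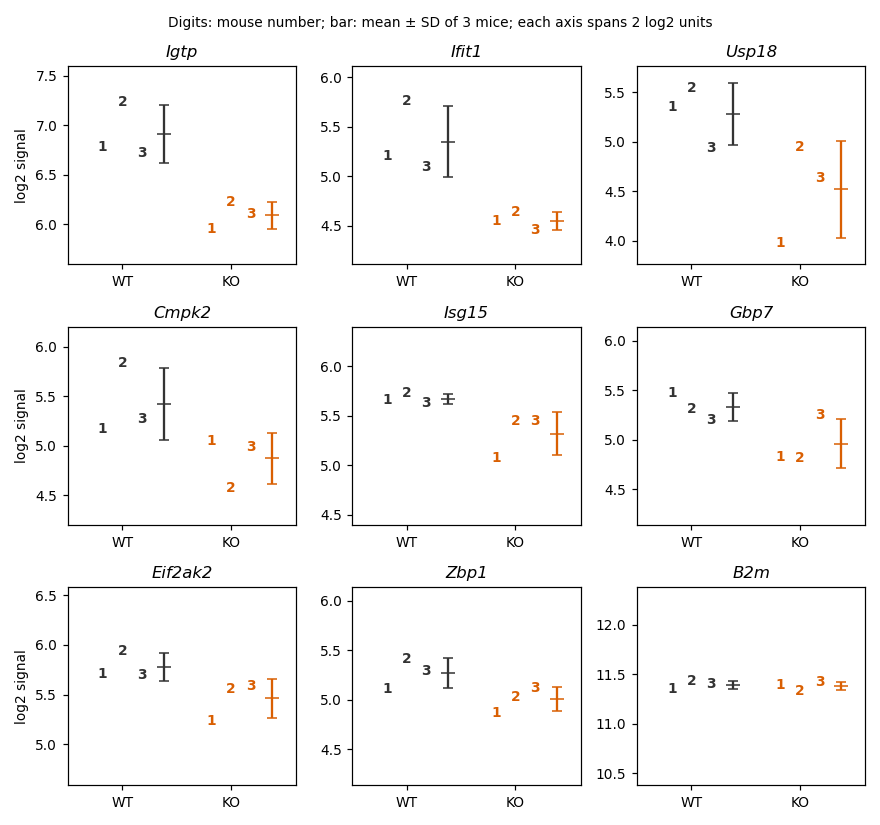
Log2 signal (y axis) of the 8 members with an unadjusted p under 0.05 and of B2m, with each digit placed at the value of the WT or KO mouse of that number and bars showing mean ± SD of 3 mice. Igtp and Ifit1 are split without overlap and by more than either group's spread, while B2m is at 11.39 and 11.38.

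All 4 tested IFIT and OAS genes had a negative difference, with a median of -0.18. Leaving out WT mouse 2 brought it to -0.043 and leaving out WT mouse 3 to -0.33. Ifit1 binds viral RNA that lacks the host's cap methylation. It measured 5.21, 5.76 and 5.09 in WT against 4.55, 4.64 and 4.46 in KO. Here too the groups did not overlap, the KO mice stood close together, and WT mouse 2 was the highest. The difference was -0.80 ± 0.17 (SE), 1.74-fold higher in WT (unadjusted p = 0.00113, limma adjusted p = 0.277), and it ran from -0.93 to -0.60 with a mouse left out.

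Oasl1, an OAS-like protein without synthetase activity that limits Irf7 translation, was at 5.76, 6.03 and 5.46 in WT and 5.52, 5.55 and 5.56 in KO. WT mouse 3 lay below every KO mouse and the other WT mice above them. Its difference was -0.21 ± 0.14 (SE; unadjusted p = 0.174) and only -0.066 without WT mouse 2. Oasl2 was at -0.15 ± 0.19 and turned to 0.091 without WT mouse 2. Ifit3, a close relative of Ifit1, differed by -0.10 ± 0.14, with a 95% interval from -0.41 to 0.22, and turned to 0.039 without KO mouse 3. Ifit1 was the 1 tested gene of the family without overlap, and the differences of the other 3 were smaller than the SD of the WT mice.

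Among the other antiviral effectors, 3 of 7 tested lay lower at an unadjusted p under 0.05, and the median was -0.26, or -0.14 without WT mouse 2. Cmpk2 is a mitochondrial nucleotide kinase encoded beside Rsad2. It measured 5.17, 5.83 and 5.27 in WT and 5.05, 4.57 and 4.99 in KO, without overlap and with KO mouse 2 lowest. The difference was -0.55 ± 0.19 (SE; unadjusted p = 0.0195, limma adjusted p = 0.437), or -0.35 without WT mouse 2. Eif2ak2, the double-stranded RNA kinase PKR, which halts translation, was at 5.71, 5.94 and 5.70 in WT and 5.23, 5.56 and 5.59 in KO. All KO values lay below all WT values, KO mouse 1 the furthest. The difference was -0.32 ± 0.13 (SE; unadjusted p = 0.0346, limma adjusted p = 0.509), and -0.20 without KO mouse 1.

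Zbp1, a sensor of left-handed nucleic acid that can trigger cell death, was at 5.11, 5.41 and 5.29 in WT and 4.87, 5.03 and 5.12 in KO. KO mouse 3 was just above WT mouse 1, so the groups touched. The difference was -0.26 ± 0.11 (SE; unadjusted p = 0.0474, limma adjusted p = 0.539). Rsad2, the radical SAM enzyme viperin, was at 4.35, 4.59 and 3.33 in WT and 3.75, 3.66 and 3.68 in KO. WT mice 1 and 2 stood above the tight KO group and WT mouse 3 below it, which left a difference of -0.40 ± 0.28 (SE; unadjusted p = 0.189). Without WT mouse 3 it was -0.78, and without WT mouse 2 it was -0.14. It is given by mouse because of that dependence, a choice made after its values were seen. Bst2, the tetherin that holds virus particles at the cell surface, was at 0.16 ± 0.15, Xaf1, a proapoptotic factor, at 0.016 ± 0.12 and Ifi35 at -0.058 ± 0.10. A weaker second probe set of Ifi35, just above the filter at a mean of 3.04, was at -0.14.

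The RNA sensors Ifih1 and Dhx58, which are MDA5 and its relative LGP2, did not stand apart between the groups. Ifih1 was at 6.55, 6.82 and 6.57 in WT and 6.32, 6.58 and 6.62 in KO, a difference of -0.14 ± 0.12 (SE; unadjusted p = 0.280). Dhx58 was at 4.33, 4.34 and 4.33 in WT and 4.23, 4.57 and 4.35 in KO, a difference of 0.047 ± 0.11 (SE; unadjusted p = 0.671). The 95% intervals, -0.41 to 0.14 and -0.20 to 0.29, still allow shifts in either direction.

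Of the ISG15 system and the linked ADP-ribosylation enzymes, all 4 tested members were negative, with a median of -0.29, or -0.17 without KO mouse 1. Isg15, the ubiquitin-like modifier itself, was at 5.66, 5.73 and 5.63 in WT and 5.07, 5.45 and 5.45 in KO. The WT mice were nearly equal and all KO mice lay below them. The difference was -0.35 ± 0.12 (SE; unadjusted p = 0.0198, limma adjusted p = 0.437), and -0.22 without KO mouse 1 (unadjusted p = 0.0631). Usp18 removes ISG15 from proteins and damps signalling at the type I interferon receptor. It measured 5.35, 5.54 and 4.94 in WT and 3.98, 4.95 and 4.63 in KO, so KO mouse 2 met WT mouse 3 and KO mouse 1 was far the lowest. The difference was -0.76 ± 0.24 (SE), 1.69-fold higher in WT (unadjusted p = 0.0135, limma adjusted p = 0.416), and -0.49 without KO mouse 1.

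Parp9, which works in a complex with the ubiquitin ligase Dtx3l, was at 6.66, 6.59 and 6.69 in WT and 6.21, 6.53 and 6.52 in KO. The groups did not overlap, and the difference of -0.23 ± 0.11 (SE; unadjusted p = 0.0756) was -0.12 without KO mouse 1. Parp14, a mono-ADP-ribosyl transferase, was at -0.13 ± 0.19 and turned to 0.0055 without WT mouse 2 and to 0.057 when KO mouse 1 was left out.

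The transcription factors of the pathway were mixed in sign: 3 were negative (60.0%, against 42.3% of all genes) and 2 positive. At an unadjusted p under 0.05 there were 0, against 2.98% lower and 6.16% higher over all genes. With 5 genes tested, a count of 0 is near those shares. Their median of -0.015 ran from -0.14 to 0.068 with a mouse left out. Stat2, a subunit of the ISRE-binding complex, was at 6.18, 6.34 and 6.13 in WT and 6.45, 6.38 and 6.44 in KO. Every KO mouse lay above every WT mouse, with WT mouse 2 closest. The difference was 0.21 ± 0.10 (SE; unadjusted p = 0.0601, limma adjusted p = 0.564). Irf1, induced by interferon gamma and a driver of class I genes, was at 4.99, 4.74 and 4.56 in WT and 4.82, 5.08 and 5.20 in KO. The groups overlapped, at a difference of 0.27 ± 0.14 (SE; unadjusted p = 0.0873). Irf9, the DNA-binding part of the same complex, differed by -0.20 ± 0.13 and Irf7, the amplifier of type I interferon production, by -0.20 ± 0.20. Irf8, a factor of macrophages and dendritic cells, was at -0.015 ± 0.14, and its sign turned with single mice left out. Its weaker second probe set, below the filter at a mean of 2.15, was at -0.16.

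Of the 6 antigen processing genes, all tested, 4 were negative (66.7%, against 42.3% of all genes) and the median was -0.055. At an unadjusted p under 0.05 there were 0, against 2.98% lower and 6.16% higher over all genes. With 6 genes, a count of 0 is near those shares. Tap1, a subunit of the peptide transporter into the endoplasmic reticulum, was at 6.18, 6.19 and 5.69 in WT and 5.76, 5.77 and 5.85 in KO. WT mice 1 and 2 were above all KO mice and WT mouse 3 below them, at a difference of -0.22 ± 0.14 (SE; unadjusted p = 0.153), or -0.39 without WT mouse 3 (unadjusted p = 0.0056). Psmb8, a catalytic immunoproteasome subunit, was at 6.32, 5.98 and 6.22 in WT and 5.97, 6.08 and 6.16 in KO. These overlapped, at -0.10 ± 0.11 (SE; unadjusted p = 0.388).

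Psmb9, the partner subunit that shares a promoter region with Tap1, was at -0.10 ± 0.17 and turned to 0.11 without KO mouse 1. Tap2, the other transporter subunit, was at 0.082 ± 0.092 and Nlrc5, the transactivator of class I genes, at 0.089 ± 0.13. B2m, the invariant light chain of class I molecules, was at 11.39 ± 0.038 in WT and 11.38 ± 0.042 in KO (SD, n = 3 each), and its difference of -0.012 had a 95% interval from -0.21 to 0.18. Without KO mouse 1 the median of the 6 genes was 0.047. Whether antigen processing differed from the GTPases in its response was not tested.

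Cxcl10, a chemokine that draws T cells, was at 3.37, 4.36 and 2.90 in WT and 3.19, 3.22 and 3.43 in KO. Its value in WT mouse 2 was far above all others, and WT mouse 3 was the lowest of the 6. The difference was -0.26 ± 0.31 (SE; unadjusted p = 0.420). It turned to 0.15 without WT mouse 2 and was -0.58 without WT mouse 3.

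**Figure D5:**
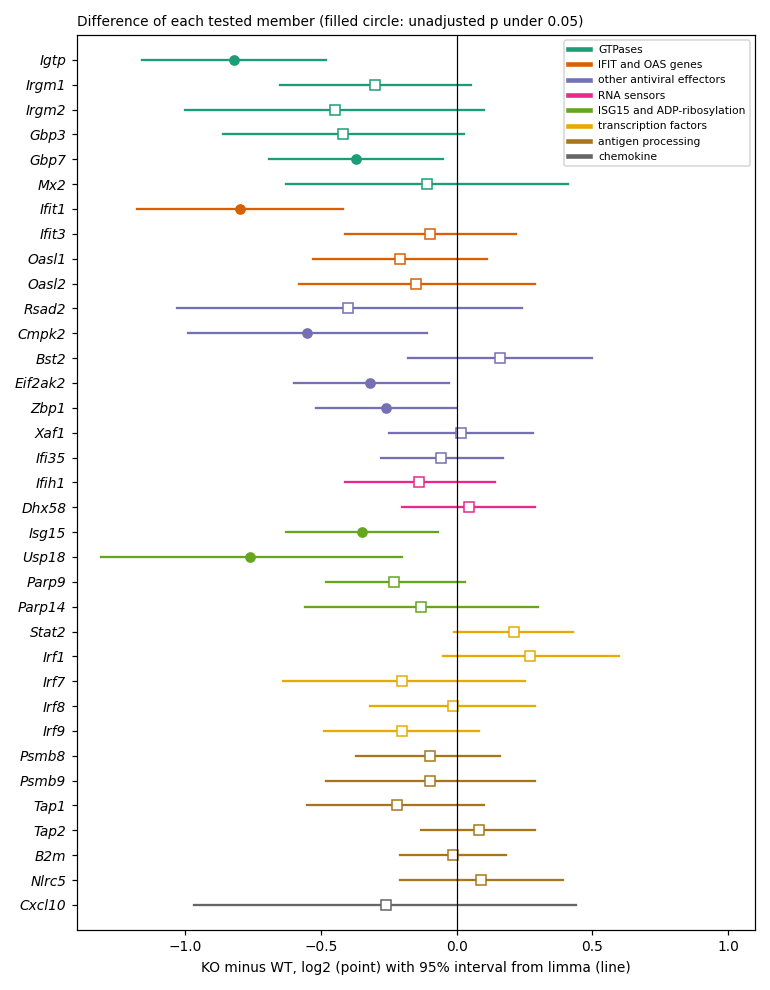
KO minus WT difference of each tested member on the log2 scale (x axis) with its 95% interval from limma, coloured by role; filled circles have an unadjusted p under 0.05. The 8 filled circles all lie left of 0, while the antigen processing genes scatter around it from -0.22 to 0.089.

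Other genes of the pathway were taken from lists named by role, 160 genes of which 139 were in the table and 106 were tested. Among these, 8 lay lower at an unadjusted p under 0.05 (7.55%, against 2.98% of all genes), 0 lay higher, and 0 passed over all genes. The median over the 106 was -0.030. Most of the 8 came from further interferon-stimulated genes, where 7 of 53 tested lay lower and the median was -0.049.

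Gbp10, another guanylate-binding protein, was at 6.91, 7.24 and 6.80 in WT and 6.06, 6.14 and 6.42 in KO. Its groups did not overlap and its difference of -0.77 ± 0.14 (SE; unadjusted p = 0.000494, limma adjusted p = 0.228) was close to that of Igtp. Apol9a, of the apolipoprotein L family, was at 7.73, 7.70 and 7.39 in WT and 6.66, 7.01 and 7.28 in KO, a difference of -0.62 ± 0.16 (SE; unadjusted p = 0.00470). Tor3a, a torsin ATPase, Lgals3bp, a secreted galectin-binding protein, and Nmi, the partner of Ifi35, differed by -0.43, -0.42 and -0.28. Oas3 and Cd274, the ligand PD-L1, differed by -0.27 and -0.24. All 7 had every KO mouse below every WT mouse, and were among 8 of the 53 tested that did (15.1%, against 5.16% of all genes). Leaving out WT mouse 2 put Nmi at -0.24 and Cd274 at -0.19 (limma unadjusted p = 0.0504 and 0.122).

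Upstream parts of the pathway had 0 genes with an unadjusted p under 0.05 in either direction. Over all genes 2.98% lay lower and 6.16% higher at that p. With lists of 5, 12 and 15 genes tested, a count of 0 is near those shares and shows no lack of change. Of 21 interferon genes listed, 19 were in the table and 14 of these were below the filter, among them Ifnb1 and Ifng. Among the 5 tested, the lambda interferon genes Ifnl2 and Ifnl3 were at 0.20 ± 0.12 and -0.32 ± 0.28 (SE). Ifnl3 measured 3.49, 4.33 and 2.99 in WT and 3.22, 3.32 and 3.31 in KO, with WT mouse 2 the highest and WT mouse 3 the lowest of the 6, the order seen for Cxcl10, and it was at 0.044 without WT mouse 2. The 12 receptor, JAK-STAT and feedback genes tested had a median of 0.034, with Pias1, an inhibitor of STAT signalling, at 0.23 ± 0.11 and the kinase Jak2 at 0.32 ± 0.16. The 15 sensing and IRF-activating genes tested had a median of 0.013, with Irf3 at 0.15 ± 0.11 and Trim25, the ubiquitin ligase that activates RIG-I, at 0.14 ± 0.13.

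Further antigen processing genes of the class I pathway numbered 16 tested, with a median of -0.093. They hold H2 class I genes, and also Tapbp, Tapbpl, proteasome genes, Erap1 and the chaperones Calr, Canx and Pdia3. Lower at an unadjusted p under 0.05 was 1 (6.25%, against 2.98% of all genes). This was H2-Q4, a nonclassical class I gene, at 4.41, 4.57 and 4.17 in WT and 4.11, 4.16 and 4.05 in KO (difference -0.28 ± 0.12 SE, unadjusted p = 0.0401, and -0.19 without WT mouse 2). Of the 16, 11 were negative (68.8%, against 42.3% of all genes) and 5 positive. The positive ones were H2-M3, Erap1, Calr, Canx and Pdia3, so H2-M3 was the only H2 gene among them. In 3 of them every KO mouse was below every WT mouse (18.8%, against 5.16% of all genes). Every KO mouse was above in 2, where the background over all genes was 9.63%. The H2 class I genes are near copies of each other, and shared signal was not tested. The 5 class II genes tested had a median of -0.047, with Ciita, the class II transactivator, at 0.14 ± 0.11 and H2-Eb1 at -0.11 ± 0.13.

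Markers of the cells that make or answer interferon were set beside these values. Of the T and NK cell markers, 9 of the 11 in the table were below the filter, with mean log2 signals per mouse of 2.52 to 2.66 in WT and 2.57 to 2.60 in KO, and the tested Ccl5 and Nkg7 were at -0.051 and 0.035. All 5 B and plasma cell markers and all 8 neutrophil and monocyte markers in the table were below the filter. Dendritic cell markers, 5 of 7 below the filter, averaged 3.21 to 3.33 in WT and 3.28 to 3.36 in KO, with Cd209a and Zbtb46 at 0.13 and -0.050. Kupffer cells are the resident macrophages of the liver, and their 11 markers averaged 5.84, 5.21 and 5.17 in WT and 5.29, 5.37 and 5.85 in KO. They were highest in WT mouse 1 and KO mouse 3, while the interferon genes were mostly highest in WT mouse 2. Clec4f and Adgre1 were at 0.23 and 0.17.

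Sinusoidal endothelial markers averaged 5.69 to 6.00 in WT and 5.74 to 5.93 in KO, with WT mouse 2 highest, KO mouse 1 next and WT mouse 3 lowest. Kdr and Stab1 were at -0.22 and 0.17. At an unadjusted p under 0.05 there were 0 of 9, against 2.98% lower and 6.16% higher over all genes. Stellate cell markers averaged 4.73 to 5.08 and 4.83 to 5.0, also highest in WT mouse 2. Of the 7 tested, 5 were negative, with a median of -0.16, and the pericyte gene Rgs5 went the other way at 0.33 ± 0.12 (SE; unadjusted p = 0.0215). Bile duct markers, 3 of 5 below the filter, averaged 3.16 to 3.35 and 3.28 to 3.32. The tested Sox9 was at 0.41 ± 0.14 (SE; unadjusted p = 0.0184) and Krt7 at 0.15 ± 0.14. Those below the filter, Krt19, Epcam and Cftr, had slightly lower means in KO. Hepatocyte markers averaged 10.81 to 10.84 and 10.80 to 10.88, with Serpina1a and Cps1 at 0.092 and -0.085. The part of any cell type in the interferon gene differences was not tested.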

How the data were processed

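Liver RNA of 6 mice was hybridised to an Affymetrix array of the whole-transcript type, per the labels' protocols. The authors deposited log2 values for 41345 probe sets in 1 table. The sources used here do not give their summarisation and normalization. Each of the 6 columns carries 1 sample's own identifier.

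Probe sets were named from the platform annotation. Those with 1 symbol (23521) were used, those with several (1814) or none (16010) were left out, and for genes with more than 1 the probe set with the highest mean was kept, which gave 22180 genes. Genes were filtered on their mean over the 6 arrays, and the upper 50%, 11090 genes from 2.99 (log2) up, were tested with limma 3.58.1 in R 4.3.3 (lmFit, eBayes, group only, two-sided, Benjamini-Hochberg over all genes tested). The fit was tested on simulated data. Each sample is 1 mouse, and the number of arrays limits the precision: the median SE of a log2 difference was 0.11 over all genes and 0.14 over the members. Array signal compresses differences of weak genes, and levels of different genes are not compared. The members and lists were chosen with earlier results of these data known. Members at an unadjusted p under 0.05 or without overlap between groups, and at least 2 per role group where it has them, are given by mouse. In other lists the genes at an unadjusted p under 0.05 are named, otherwise the 2 of smallest p. Alternatives were the signal filter, probe set choice, normalization, limma options, a pseudocount of 16, a replicate block and leaving out each mouse.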

Additional observations from a re-analysis of the deposited data

How the results depend on the processing

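The direction of the members' median was negative under all 15 alternatives run. Each kept 0 members called at an adjusted p under 0.05 except the one without WT mouse 3. With a mouse left out, members called over all genes numbered 0 to 1, members lower at an unadjusted p under 0.05 numbered 2 to 15 and members higher 0 to 2. Members with every KO mouse below every WT mouse numbered 6 to 16 and those with every KO mouse above 1 to 5. Such counts can only stay or rise when a mouse is left out, and their shares over all genes in these fits are not given. Other pathway genes at an unadjusted p under 0.05 in either direction numbered 7 to 21 of 106 in these fits. Over all 11090 genes 771 to 1023 had that p. All genes called at an adjusted p under 0.05 numbered 1 to 51. The antigen processing median ran from -0.091 to 0.047. Calls over all genes were 4 in the reported fit, 0 in the upper 25% of genes by signal, 1 with a pseudocount of 16 and 1 with the replicate number as a block. Genes at an unadjusted p under 0.05 were 1013 as reported, 1660 without the filter and 567 in the upper 25%. Members higher numbered 1 without the filter, in the upper 25% and with the pseudocount. Other pathway genes at that p in either direction were 5 in the upper 25%, where the number tested is not given. After quantile normalization they were 15 of 106, with 1078 of all 11090 genes at that p. That normalization put 12 members without overlap below WT. The share over all genes without overlap after quantile normalization is not given. The transcription factor median was -0.20 in the upper 25%, where fewer genes are tested. Beyond the last, the causes were not tested.

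Of 625 values for 43 single genes under the alternatives, 603 kept direction and call, 21 changed sign and 1 passed the adjusted threshold (Rsad2). Xaf1 was at -0.037 after quantile normalization and -0.0024 with array weights, and Dhx58 at -0.0092 after quantile normalization. The other sign changes came with a mouse left out, where the differences ran from -0.39 to 0.11 for Mx2, -0.19 to 0.039 for Ifit3, -0.32 to 0.091 for Oasl2, -0.10 to 0.087 for Xaf1 and -0.10 to 0.018 for Ifi35. They ran from -0.047 to 0.12 for Dhx58, -0.30 to 0.057 for Parp14, -0.14 to 0.068 for Irf8 and -0.24 to 0.11 for Psmb9. For B2m, Nlrc5 and Cxcl10 the ranges were -0.032 to 0.010, -0.015 to 0.21 and -0.58 to 0.15.

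Mice of the same number did not deviate together more than others. Correlations over genes were 0.055, -0.19 and 0.15 for numbers 1 to 3, and -0.27 to 0.24 for mice of unlike number. These values show no pairing by number, but they cannot tell whether mice were paired by litter or handling. The replicate block put 9 members lower at an unadjusted p under 0.05, against 8. Signal close to background limits the genes near the filter, such as Mx2 and Cxcl10.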
